A study of Saccharomyces cerevisiae with 27 samples.

Results

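The genes described here are 10 genes of the guanine branch of purine synthesis and of purine salvage, IMD2, IMD3, IMD4, GUA1, AAH1, APT1, HPT1, XPT1, AMD1 and FCY2. They were taken by name as known members of these routes and found by their symbols in the probe annotation. No threshold on a measured change picked them, but they were chosen with earlier results of these data known, so their counts beside all genes are a description. For IMD2 and IMD4, which have 3 and 2 probe sets, the probe set with the highest mean over all arrays was used. All 10 were measured and entered the test with the other genes, 5656 in all, and no filter on low values was applied. The samples, 27 in 9 groups of 3, each hybridised to one Affymetrix array, came from the budding yeast strain Saccharomyces cerevisiae X2180-1A, for which the labels give no genetic change. The 6 heat groups were aerated fermentor cultures on minimal glucose medium, moved in mid-exponential growth to 41 °C and sampled 10, 30, 60, 120, 240 and 360 min later. The 3 control groups were cultures of the same strain and medium kept at 28 °C, taken after 0, 120 and 240 min. The submitters describe 3 heat and 3 control cultures, so that samples of different times share cultures, and the p-values given below treat them as separate. The comparisons address how transcript levels of these genes changed with time at 41 °C.

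Purine nucleotides are built on a ribose phosphate up to IMP, where the pathway forks. IMP dehydrogenase, encoded by the IMD genes, makes XMP, and GMP synthase, encoded by GUA1, turns XMP into GMP, while a separate arm leads to AMP. Salvage recovers free bases: the permease Fcy2 imports adenine, guanine, hypoxanthine and cytosine, the deaminase Aah1 turns adenine into hypoxanthine, and the phosphoribosyltransferases Apt1, Hpt1 and Xpt1 join adenine, hypoxanthine or guanine, and xanthine or guanine to ribose phosphate. AMP deaminase, encoded by AMD1, returns AMP to IMP and so links the adenine arm to the guanine branch.

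Array intensities are given as deposited, on a linear scale, and changes as log2 differences ± SE after quantile normalisation of the arrays and addition of an offset of 113.809, the 10th percentile of all values. The offset understates the change of dim genes, and the level of one gene cannot be set against that of another, since each has its own probes. A gene was called higher or lower at a Benjamini-Hochberg adjusted p under 0.05 over all tested genes in limma. Replicate arrays of a group correlated with r between 0.983 and 0.997, and 3 arrays per group set the limit of precision. Heat and control arrays differed in their background: the mean log2 signal of the 19 probe sets for non-yeast transcripts lay between 5.15 and 6.21 on the 18 heat arrays, against 6.05 to 6.35 on the 9 control arrays. For SRB4, the 3' probe set over the 5' one, a measure of RNA and labelling quality, gave ratios between 2.97 and 5.62 on heat arrays, against 1.98 to 2.81 on control arrays, while ACT1 gave 0.947 to 1.19, against 0.898 to 1.01. The part of either measure in the results was not tested, apart from fits with the background level as a term. Where such a fit ended a call of 1 of the 10 genes, its values are given for some comparisons only. A comparison without such a value need not have kept its call. On heat arrays from 30 to 360 min the non-yeast signal lay between 5.15 and 5.71, below every control array. Such a fit therefore cannot separate heat from background at these times. Its SE can also be wider (0.29 for FCY2 at 360 min against 0 min), so a lost call need not mean a smaller change. Genes specific to mating type a (5 genes, medians 80.1 to 799) and alpha (4 genes, medians 62.4 to 588) had overlapping intensities. Since levels of different genes cannot be set against each other, these values cannot give the mating type, and it was not read from the arrays. An array reads a transcript's share of the RNA loaded, and fewer cells with the transcript and less transcript per cell cannot be told apart.

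At 30 min of heat, 9 of the 10 genes were at lower levels than in control cultures at 0 min and 1, AMD1, was at a higher level. The falls ran from -0.94 ± 0.06 for XPT1 to -2.85 ± 0.15 for FCY2, with a median over the 10 genes of -2.39, against 0.00 over all genes tested. Of all genes, 40.2% were called lower at that time and 40.7% higher. A change of at least 2-fold was called for 8 of the 10, against 27.1% of all genes. At 10 min the same 9 genes were lower, where 38.8% of all genes were called lower, 5 of the 10 by at least 2-fold, against 15.6% of all genes, and AMD1 was not called at 0.08 ± 0.08. These 9 falls kept their calls at both times under each of the other settings tried for the main probe sets. By 360 min, 5 genes were still called lower (GUA1, AAH1, APT1, HPT1 and FCY2), against 35.2% of all genes, and 2 were called higher (IMD4 and AMD1), against 31.8%. The control cultures gave no call for any of the 10 genes at 120 or 240 min against 0 min in limma, where 0 and 4 genes of all tested were called (0% at 120 min and 0.0707% at 240 min). At an unadjusted p under 0.05, 0 of the 10 genes passed at 120 min and 1, AAH1 (-0.25 ± 0.09, adjusted p = 0.893), at 240 min. Of the 5656 genes tested, 97 passed at 120 min and 220 at 240 min.

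**Figure D1:**
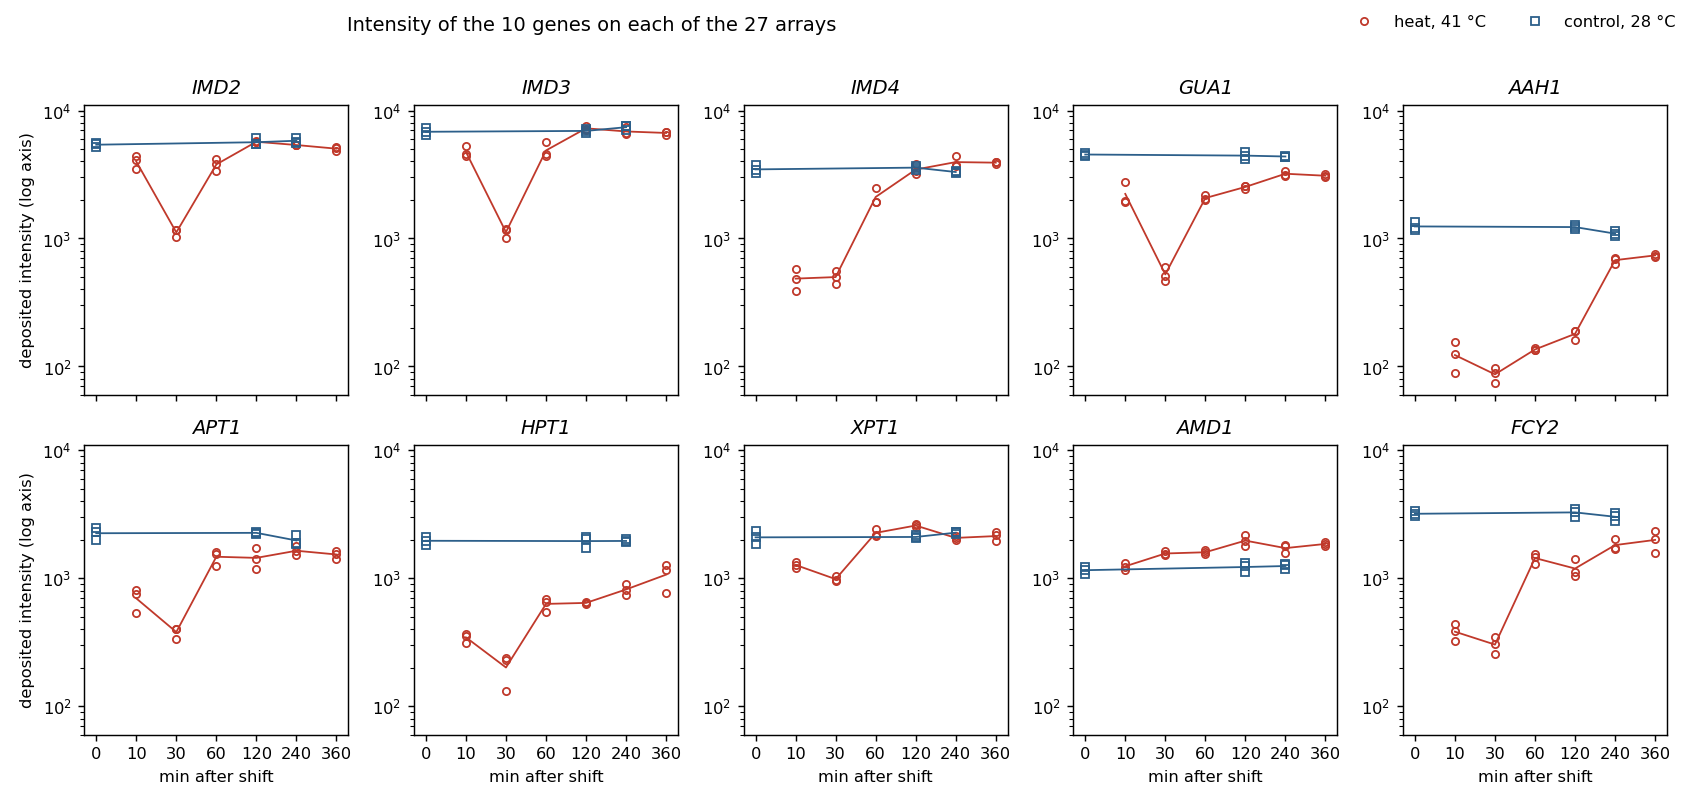
Deposited intensity (log axis) of the 10 genes on each array against min after the shift (evenly spaced times), with red circles for heat at 41 °C, blue squares for control at 28 °C and lines through the group means. IMD2, IMD3 and GUA1 are lowest at 30 min only, IMD4, FCY2 and AAH1 are low at both 10 and 30 min, AAH1 stays near 180 at 120 min, and AMD1 runs above its controls from 30 min on.

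The IMP dehydrogenase genes, whose enzyme makes the first step towards GMP, fell within 10 to 30 min. In the probe sets used, they were back near their control levels at 120 min. IMD4 fell first and fully at 10 min, with intensities of 486, 579 and 391.5 at 10 min of heat, against 3238, 3755 and 3408 in controls at 0 min. It was 14.0% of the control mean at 10 min and 14.4% at 30 min, and no array of either time came near a control array. The change was -2.43 ± 0.11 at 10 min (adjusted p = 3.29e-15), the 16th largest fall of all genes on this scale, and 0.02 ± 0.11 between 10 and 30 min, which was not called. At 60 min IMD4 had risen to 2111 ± 318 (SD, n = 3), and at 120 min it stood at 3457 ± 312, against 3578 ± 124 in controls of the same time.

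IMD2 and IMD3 took the larger part of their fall between 10 and 30 min. For IMD3 the arrays read 4570, 5254 and 4408 at 10 min of heat and 1163, 1191 and 1009 at 30 min, against 6754, 6444 and 7264 in controls at 0 min. IMD2 read 4091, 4388 and 3502 at 10 min and 1158, 1163 and 1025 at 30 min, against 5189, 5429 and 5598 in controls at 0 min. Heat arrays of both genes lay below all control arrays at these times, and the arrays at 30 min below those at 10 min. The change at 10 min was -0.53 ± 0.07 for IMD3 and -0.37 ± 0.07 for IMD2, and that between 10 and 30 min was -1.84 ± 0.07 (adjusted p = 1.63e-16) and -1.64 ± 0.07 (adjusted p = 3.23e-15). The probe sets used for IMD2 and IMD3 are of the kind that detect several members of a gene family, the 2 genes are closely related copies, and the probe sets used for them correlated at r = 0.998 over the 9 group means of deposited log2 intensity, so that IMD2 and IMD3 are uncertain as single genes. Counts over the 10 genes include both.

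Between 60 and 120 min all 3 IMD genes rose again, by 0.58 ± 0.07 for IMD2, 0.53 ± 0.07 for IMD3 and 0.75 ± 0.11 for IMD4. At 120 min of heat none of the 3 was called against controls of that time, at 0.07 ± 0.07 for IMD2, 0.06 ± 0.07 for IMD3 and 0.00 ± 0.11 for IMD4. Later levels of this family lay so close to control that the scaling decided their sign. IMD4 was called higher at 240 min (0.39 ± 0.11 against controls of that time, adjusted p = 0.00479; 0.30 ± 0.11 against 0 min) and at 360 min (0.27 ± 0.11, adjusted p = 0.0355), but with the arrays scaled to a common median these values were 0.15, -0.02 and -0.09, with no call. With the background level as a term they were 0.49 (adjusted p = 0.0537), 0.40 (adjusted p = 0.117) and 0.40 (adjusted p = 0.179), and none was called either. The 2 values against 0 min were also not called in the values as deposited (0.18 and 0.17) or as the mean of both probe sets (0.20 and 0.18). The calls against 0 min were also lost without replicate 1 or 3 of the control at 0 min (0.27 and 0.23 at 240 min, 0.25 and 0.21 at 360 min), without replicate 2 of heat 240 min (0.20) and without replicate 1 or 2 of heat 360 min (0.24 and 0.27). With the common median IMD2 and IMD3 were called lower at 240 min (-0.21 and -0.20) and 360 min (-0.36 and -0.29), where the values after quantile normalisation were 0.11 and 0.06 at 240 min and 0.01 and 0.02 at 360 min, none of them called.

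The several probe sets of IMD2 and IMD4 did not give the same late course. In a fit of all probe sets, the dimmest of the 3 IMD2 probe sets was called lower at 360 min (-1.01 ± 0.12, adjusted p = 4.02e-07) and at 240 min against controls of that time (-0.98 ± 0.12, adjusted p = 6.54e-07). Its mean intensity was 51.1% of the control at 0 min after 360 min of heat and 134.6% in controls at 240 min. At 120 min it stood at 98.0% in heat and 117.8% in controls. In the main fit with this probe set in place of the brightest, IMD2 was called lower against controls at 120 min (-0.34, adjusted p = 0.0166). The brightest IMD2 probe set, used above, and the second stood at 93.1% and 88.9% at 360 min and were not called there. All 3 fell at 30 min, the brightest to 20.6%, the second to 15.8% and the dimmest to 15.9%. For IMD4, the dimmer probe set stood at 39.3% at 60 min and 78.7% at 120 min, against 60.9% and 99.7% for the brighter one, and was still called lower at 120 min (-0.54 ± 0.10 against controls of that time, adjusted p = 9.7e-05). At 240 and 360 min the dimmer probe set stood at 100.3% and 102.8% and was not called, so the rise of IMD4 above control was seen in one of its probe sets only. The comparison of these probe sets was chosen after their values were seen.

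**Figure D2:**
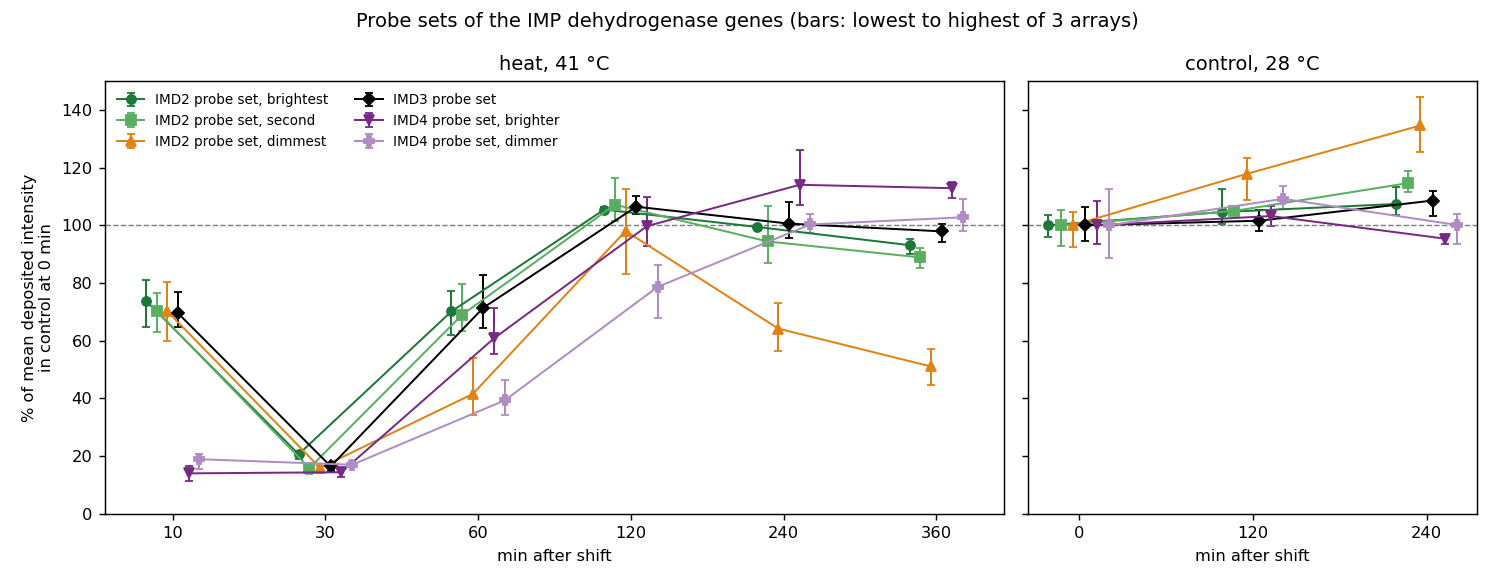
Mean intensity of the 6 probe sets that name 1 IMP dehydrogenase gene, as % of the mean of control cultures at 0 min (linear axis from 0), against min after the shift, heat on the left and control on the right; bars run from the lowest to the highest of 3 arrays. All 6 lie between 14.4% and 20.6% at 30 min of heat, and the dimmest IMD2 probe set alone lies near 51.1% at 360 min.

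GUA1, the next step of the branch, had its larger log2 step between 10 and 30 min, as IMD2 and IMD3 did, and was still called lower at 360 min. In intensity, unlike IMD2 and IMD3, its larger loss came in the first 10 min. Its intensities were 462, 603 and 508 at 30 min of heat, against 4408, 4532 and 4652 in controls at 0 min, a level of 11.6% and a change of -2.73 ± 0.08 (adjusted p = 1.86e-19). At 10 min it had reached 49.2% (-0.92 ± 0.08), and the step between 10 and 30 min was -1.81 ± 0.08. It rose to 45.7% at 60 min and 55.8% at 120 min. At 240 and 360 min it stood at 70.8% and 68.2% of the control at 0 min, with no heat array of any time reaching a control array. Against controls of the same time the change was -0.80 ± 0.08 at 120 min and -0.26 ± 0.08 at 240 min (adjusted p = 0.00677), and at 360 min it was -0.44 ± 0.08 against 0 min. With the background level as a term the falls at 240 and 360 min lost their calls (-0.12 against controls at 240 min, adjusted p = 0.478, and -0.29 at 360 min, adjusted p = 0.147).

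AAH1, which diverts adenine to hypoxanthine, was still at 14.5% of its control at 120 min, the lowest share among the 10 genes at that time. Its intensities were 126, 154 and 88.5 at 10 min of heat, 88.4, 98.1 and 73.8 at 30 min, 134, 134 and 139 at 60 min and 189, 190 and 161 at 120 min, against 1162, 1348 and 1217 in controls at 0 min. The mean at 30 min was 14.3-fold under that control, and at 120 min it was still 6.91-fold under it. The heat arrays lay far below the control arrays at each of these times. The non-yeast probe sets averaged 57.7 to 94.7 on the arrays at 10 min and 49.0 to 64.2 at 30 min, so that AAH1 lay close to background and the size of its fold is uncertain. On the log2 scale with the offset the changes were -2.50, -2.74, -2.57 and -2.40 (each ± 0.09) at 10, 30, 60 and 120 min. AAH1 was the 5th largest fall of all genes at 60 min and the 7th largest at 120 min.

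Between 120 and 240 min AAH1 rose by 1.48 ± 0.09 (adjusted p = 9.72e-11). The arrays at 240 min of heat read 693, 710 and 628, against 1085, 1139 and 1050 in controls of that time, and those at 360 min read 735, 757 and 721. All lay above the heat arrays at 120 min and below all control arrays. The remaining difference was -0.67 ± 0.09 against controls at 240 min (adjusted p = 6.31e-07) and -0.85 ± 0.09 at 360 min against 0 min, and both kept their calls with the background level as a term. The heat effect at 240 min minus that at 120 min was 1.63 ± 0.12 for AAH1 (adjusted p = 1.8e-08), larger than for 99.9% of all genes. The small steps at the bottom of the course were not settled. AAH1 was called lower at 30 than at 10 min (-0.24 ± 0.09, adjusted p = 0.0231), with overlapping arrays, and lost that call without replicate 1 (-0.22) or 2 (-0.14) of heat 10 min or replicate 3 of heat 30 min (-0.17). That step was also not called with dim genes left out (-0.023, adjusted p = 0.786), with the background level as a term (-0.033, adjusted p = 0.786) or in a fit of only the groups compared (-0.24, adjusted p = 0.115). Its step between 30 and 60 min was 0.16 ± 0.09 and not called, but 8 of the 17 other settings tried for it gave a call. Of these, only the fit with dim genes left out gave a fall (-0.45). The rises called included 0.32 in the values as deposited, 0.24 with a common median, 0.28 with an offset of 20 and 0.23 with the background level as a term.

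Among the phosphoribosyltransferase genes, HPT1 and APT1 were called lower than control at 0 min at all 6 heat times, and XPT1 at 10 and 30 min. HPT1, for hypoxanthine and guanine, read 355.5, 315 and 369 at 10 min of heat and 131, 240 and 232 at 30 min, against 1834, 1949 and 2123 in controls at 0 min. At 30 min that was 10.2% of the control, a change of -2.66 ± 0.14 (adjusted p = 1.15e-14). HPT1 stood at 32.1%, 32.7%, 41.7% and 54.4% of the control at 60, 120, 240 and 360 min. No heat array of these times overlapped a control array. Against controls of the same time its change was -1.52 ± 0.14 at 120 min and -1.18 ± 0.14 at 240 min (adjusted p = 1.52e-07), the only fall of at least 2-fold among the 10 genes at that time, where 6.14% of all genes changed as much. Its arrays at 360 min were wide apart, at 1268, 770 and 1173, and the step between 240 and 360 min (0.29 ± 0.14, adjusted p = 0.2) was called only without replicate 2 of heat 360 min (0.50, adjusted p = 0.0169). HPT1 and AAH1 were the 2 genes whose falls at 240 and 360 min kept their calls with the background level as a term, a fit that cannot separate heat from background, as given above. In that fit 2120 of the 5656 genes tested were called at 360 min.

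APT1, for adenine, read 752, 805 and 539 at 10 min of heat and 404, 399 and 339 at 30 min, against 1992, 2464 and 2309 in controls at 0 min. Its heat arrays lay well below the control arrays at both times, and the change was -1.48 ± 0.13 at 10 min and -2.19 ± 0.13 at 30 min (adjusted p = 7.03e-14). At 60 min it had returned to 65.5% of the control, and from there to 360 min it moved between 64.2% and 73.0%. Against controls of the same time APT1 was called lower at 120 min (-0.71 ± 0.13, adjusted p = 2.95e-05) and not at 240 min (-0.24 ± 0.13, adjusted p = 0.102), where the control mean was itself 87.7% of that at 0 min. Without replicate 2 of heat 240 min that last difference was called (-0.33, adjusted p = 0.0406), as it was with a common median (-0.35) and in a fit of only the groups compared (-0.24, adjusted p = 0.0483). With the background level as a term its falls from 60 min on were not called (-0.32 at 60 min, -0.17 at 360 min).

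XPT1, for xanthine and guanine, had the smallest fall of the 9 genes at 30 min, though at 10 min IMD2 and IMD3 had smaller ones. It read 954, 1038 and 971 at 30 min of heat, against 2089, 1860 and 2333 in controls at 0 min, or 47.1% of the control, and these arrays did not overlap. The change was -0.60 ± 0.06 at 10 min and -0.94 ± 0.06 at 30 min (adjusted p = 6.46e-13). At 60 min XPT1 was back at 108% of the control (0.00 ± 0.06). At 120 min its heat arrays, at 2525, 2643 and 2602, lay above the control arrays of that time, at 2051, 2172 and 2102, and it was called higher (0.22 ± 0.06, adjusted p = 0.00225). That rise was 0.08 and not called with arrays scaled to a common median, and 0.17 and not called with the background level as a term. At 240 min it was -0.09 ± 0.06 against controls of that time and at 360 min 0.00 ± 0.06 against 0 min, neither called, though with a common median both were called lower (-0.23 and -0.22).

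FCY2, the permease that brings purine bases and cytosine into the cell, fell as early as IMD4 and AAH1. Its arrays read 389, 437 and 324 at 10 min of heat and 309, 348 and 255 at 30 min, against 3065, 3347 and 3188 in controls at 0 min, with wide gaps between heat and control. The level was 12.0% at 10 min and 9.50% at 30 min, the changes -2.60 ± 0.15 (adjusted p = 1.2e-13) and -2.85 ± 0.15 (adjusted p = 8.54e-15), and the step between these times was not called (-0.26 ± 0.15). At 10 min it was the 11th largest fall of all genes. FCY2 rose to 45.1% at 60 min, stood at 37.3% at 120 min and reached 56.9% at 240 min and 62.5% at 360 min. Against controls of the same time its change was -1.42 ± 0.15 at 120 min and -0.62 ± 0.15 at 240 min (adjusted p = 0.000898). At 240 min this was -0.39 and not called with the background level as a term, and at 360 min the value of -0.64 ± 0.15 against 0 min became -0.37 and was not called. A probe set that the annotation gives to both FCY22 and FCY2 stood at 10.9%, 7.77%, 37.1%, 31.6%, 48.1% and 56.2% of its control over the 6 heat times.

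AMD1, whose product turns AMP back into IMP, was the one gene of the 10 that was never called lower against a control. It read 1636, 1540 and 1522 at 30 min and 1951, 1797 and 2177 at 120 min of heat, against 1160, 1092 and 1227 in controls at 0 min, and its heat arrays lay above these control arrays at each time from 30 min on. The change was 0.44 ± 0.08 at 30 min (adjusted p = 1.1e-05) and 0.25 ± 0.08 at 60 min, and from 120 to 360 min it lay between 0.43 ± 0.08 and 0.52 ± 0.08 (adjusted p = 2.55e-06 at 360 min). Against controls of the same time it was 0.53 ± 0.08 at 120 min and 0.42 ± 0.08 at 240 min. These rises were called under quantile normalisation, in the values as deposited and with a common median, and none of them with the background level as a term, which gave 0.19 at 30 min, -0.07 at 60 min and 0.16 at 360 min. Its step between 30 and 60 min (-0.19 ± 0.08, adjusted p = 0.0249) turned to 0.030 in the values as deposited. It was not called with a common median (-0.12, adjusted p = 0.144), in a fit of only the groups compared (adjusted p = 0.0575) or without any 1 of 4 arrays, replicates 1 and 3 of heat 30 min and 2 and 3 of heat 60 min (-0.18 to -0.16).

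**Figure D3:**
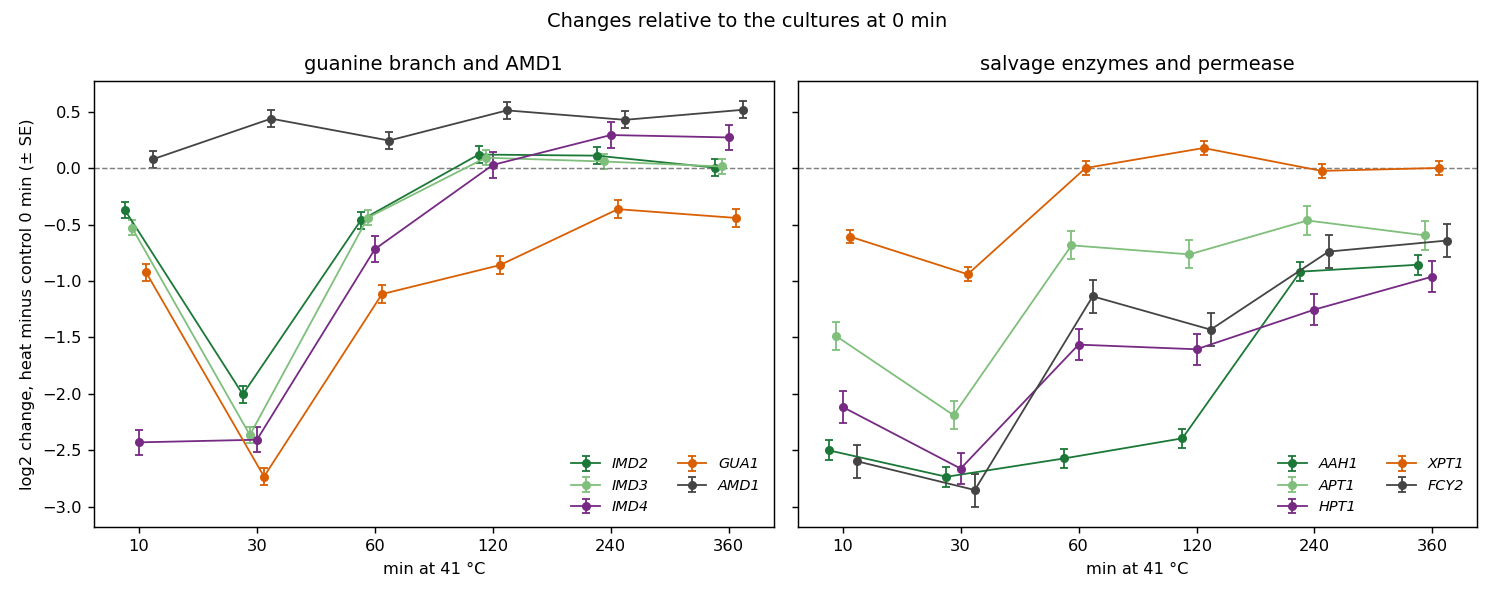
Log2 change ± SE of each gene at the 6 heat times, heat minus control at 0 min, from 3 arrays against 3; the left panel holds the guanine branch and AMD1, the right panel the salvage enzymes and the permease. At 120 min the IMD genes and XPT1 lie near 0 while AAH1 lies at -2.40, and AMD1 lies above 0 at every time.

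Successive heat times were compared for the 10 genes. From 10 to 30 min 7 genes were called lower, AAH1 among them with the limits given above, where 26% of all genes were called lower, with IMD2, IMD3 and GUA1 by more than 2-fold, and AMD1 was called higher (0.36 ± 0.08), where 33.5% of all genes were. With the background level as a term AMD1 was not called in that step (0.18, adjusted p = 0.0569). IMD4 and FCY2 were not called in that step. From 30 to 60 min 8 genes rose, where 32.2% of all genes were called higher, led by IMD3 (1.93 ± 0.07), FCY2 (1.72 ± 0.15) and IMD4 (1.69 ± 0.11). AAH1 was not among them, though several settings called it, as given above. AMD1 was called lower in that step, where 39.4% of all genes were, a call that several settings ended, as given above. From 60 to 120 min 6 rose, against 18.3% of all genes: the 3 IMD genes, GUA1 (0.26 ± 0.08), XPT1 (0.18 ± 0.06) and AMD1 (0.27 ± 0.08). APT1, HPT1 and FCY2 had values of -0.08 ± 0.13, -0.04 ± 0.14 and -0.30 ± 0.15 in that step, none called. The call of GUA1 was lost without replicate 2 of heat 60 min (0.23) or of heat 120 min (0.22) and with a common median (0.19, adjusted p = 0.15). That of AMD1 was lost without replicate 3 of heat 120 min (0.20) and in a fit of only the groups compared (adjusted p = 0.0611). That of XPT1 was lost in the values as deposited (0.18), with a common median (0.10), in a fit of only the groups compared (adjusted p = 0.13) and without any 1 of 4 arrays, replicates 1 and 3 of heat 60 min and 2 and 3 of heat 120 min (0.14 to 0.16).

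From 120 to 240 min AAH1, FCY2 (0.69 ± 0.15) and GUA1 (0.50 ± 0.08) rose, against 10% of all genes, and XPT1 fell (-0.20 ± 0.06, adjusted p = 0.0184), where 11% of all genes fell. XPT1 lost that call without replicate 2 (-0.17) or 3 (-0.19) of heat 120 min or replicate 1 of heat 240 min (-0.18), and in a fit of only the groups compared (adjusted p = 0.102). From 240 to 360 min none of the 10 genes was called in limma, against 8.1% of all genes. There 1 of the 10, HPT1, had an unadjusted p under 0.05, as did 1358 of the 5656 genes tested. Over the whole later course, from 30 to 360 min, 9 of the 10 rose by 0.94 ± 0.06 (XPT1) to 2.68 ± 0.11 (IMD4), where 35.6% of all genes were called higher. AMD1 had 0.08 ± 0.08 over that span and was not called. At 60, 120 and 240 min against control at 0 min, 8, 5 and 5 of the 10 genes were called lower, where 37.4%, 36.2% and 34.1% of all genes were, and 1, 2 and 2 were called higher, where 31.8%, 32.7% and 29% of all genes were. Falls of at least 2-fold numbered 4, 3 and 1 among them, against 9.26%, 8.19% and 6.19% of all genes with a called change of that size.

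Controls of the same culture time gave a like picture at 120 min, with 5 genes called lower (35.6% of all genes) and 2 called higher (33.3% of all genes), and at 240 min, with 4 lower (33%) and 2 higher (28.3%). Changes of at least 2-fold were called for 3 of the 10 genes at 120 min (AAH1, HPT1 and FCY2), against 8.08% of all genes. The genes called lower at 240 min were GUA1, AAH1, HPT1 and FCY2, and those called higher were IMD4 and AMD1. The heat effect at 240 min differed from that at 120 min towards higher levels for AAH1, FCY2 and GUA1, where 5.45% of all genes were called, and towards lower levels for XPT1, where 5.18% were. In all of these late comparisons heat and control arrays also differed in the level of the non-yeast probe sets, as given above. With that level as a term, 2 of the 10 genes were called at 240 min against either control and 2 at 360 min, AAH1 and HPT1 in each case. At 360 min 2120 of the 5656 genes tested were called in that fit. The count over all genes at 240 min is not given here.

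Over the 9 group means of log2 level, which share arrays and cultures and are given as a description, the 10 genes were alike to different degrees. IMD2 and IMD3 correlated at r = 0.997, but their family probe sets leave both uncertain as single genes, as given above. The values were 0.971 for APT1 and FCY2, 0.958 for HPT1 and FCY2 and 0.939 for GUA1 and IMD3. AAH1 correlated with HPT1 at 0.936 but with XPT1 at only 0.52. AMD1 correlated with the other 9 genes at -0.59 to 0.04. Of all other genes, the course most like that of AAH1 was that of INA1 (r = 0.998), followed by SCW11 (0.994) and BUD9 (0.993). GDA1 (0.999), SYO1 (0.998) and NIP7 (0.997) ran closest to FCY2, and SRP40, ALB1 (both 0.997) and TOS7 (0.996) to HPT1. The closest to GUA1 were NMD3 (0.995), SEC14 and ELP2 (both 0.993), and ELP6 (0.992), NOC2 and UTP10 (both 0.991) lay closest to APT1. IMD4 was most like YLR419W (0.992), RAI1 (0.992) and ALE2 (0.991), and IMD2 and IMD3, after each other, were most like RBG1 (0.990) and RPL33B (0.995). XPT1 was most like RPC11 (0.985), MET5 (0.982) and ARG2 (0.981), and AMD1 most like AIM46 (0.988), SOH1 (0.978) and QCR2 (0.977).

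Most genes of de novo purine synthesis fell at the same times, and the median of that list was further below 0 at 360 min. The list holds genes upstream of the fork and also ADE12, which acts after it on the arm to AMP. Of 10 measured genes of de novo synthesis (ADE5,7 was not analysed here), 9 were called lower and 1, ADE16, was called higher at 30 min (0.69), where 40.2% and 40.7% of all genes were, with a median of -1.86, against -2.39 for the 10 genes of the guanine branch and salvage. At 360 min 8 were called lower, where 35.2% of all genes were, with a median of -1.25, against -0.22 for the guanine branch and salvage and -0.03 for all genes. ADE17, which like ADE16 encodes an enzyme of the last steps to IMP, was at -2.95 ± 0.07 at 30 min and -1.92 ± 0.07 at 360 min. ADE6 was at -2.90 ± 0.09 and -1.23 ± 0.09, ADE1 at -2.73 ± 0.13 and -1.57 ± 0.13, and ADE13, used on both the IMP and the AMP route, at -2.52 ± 0.11 and -1.27 ± 0.11. None of the 10 was called for a difference between the heat effects at 240 and 120 min, where 10.6% of all genes were. Of the 10 genes of the guanine branch and salvage, AAH1, FCY2, GUA1 and XPT1 were called there. ADE16 was named after its values were seen.

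The PRPP synthetases, which make the activated ribose phosphate that synthesis and salvage both use, were 5 of 5 lower at 30 min, where 40.2% of all genes were, with a median of -2.03, against 0.00 over all genes. At 360 min 3 of 5 were lower, where 35.2% of all genes were, with a median of -0.25, against -0.03. PRS3 was at -2.68 ± 0.09 at 30 min, PRS4 at -2.04 ± 0.07, PRS1 at -2.03 ± 0.08 and PRS5 at -1.47 ± 0.10. Of 14 other purine nucleoside and nucleotide enzymes, 9 were lower and 4 higher at 30 min, where 40.2% and 40.7% of all genes were, with a median of -0.86. MEU1, which frees adenine from methylthioadenosine, was at -2.14 ± 0.06, the guanylate kinase gene GUK1, which acts on GMP, at -1.58 ± 0.07, and HAM1, which removes unusual purine nucleotides, at -1.55 ± 0.06. The highest was PHM8, whose product dephosphorylates nucleotides, at 3.42 ± 0.08 at 30 min (adjusted p = 3.73e-21) and 1.55 ± 0.08 at 360 min. The other 3 that rose, chosen after their values were seen, were the guanine deaminase gene GUD1 (1.20), the nucleoside diphosphate kinase gene YNK1 (1.02) and the IMP nucleotidase gene ISN1 (0.89). At 360 min 6 of the 14 were lower and 2 higher, with a median of -0.12, where 35.2% and 31.8% of all genes were.

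Of 13 genes of pyrimidine synthesis and salvage, 9 were lower and 3 higher at 30 min, with a median of -1.57, where 40.2% and 40.7% of all genes were. At 360 min 7 were lower and 5 higher, with a median of -0.18, where 35.2% and 31.8% of all genes were. URA7, a CTP synthase gene, was at -3.02 ± 0.11 at 30 min and -0.42 ± 0.11 at 360 min. URA1 was at -2.23 ± 0.08, FUR1, the uracil phosphoribosyltransferase gene, at -2.22 ± 0.10 and URA5 at -2.17 ± 0.09 at 30 min. The 3 higher ones, chosen after their values were seen, were URA8 (1.21), the second CTP synthase gene, URA10 (0.89) and CDD1 (0.56). Of 7 other permease genes, 5 were lower and 1 higher at 30 min, where 40.2% and 40.7% of all genes were, with a median of -0.61. The uridine permease gene FUI1 was at -2.42 ± 0.14, the uracil permease gene FUR4 at -1.67 ± 0.10 and TPN1, the pyridoxine permease gene of the same family, at -1.32 ± 0.09, while DAL4, the allantoin permease gene, was at 1.03 ± 0.16.

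**Figure D4:**
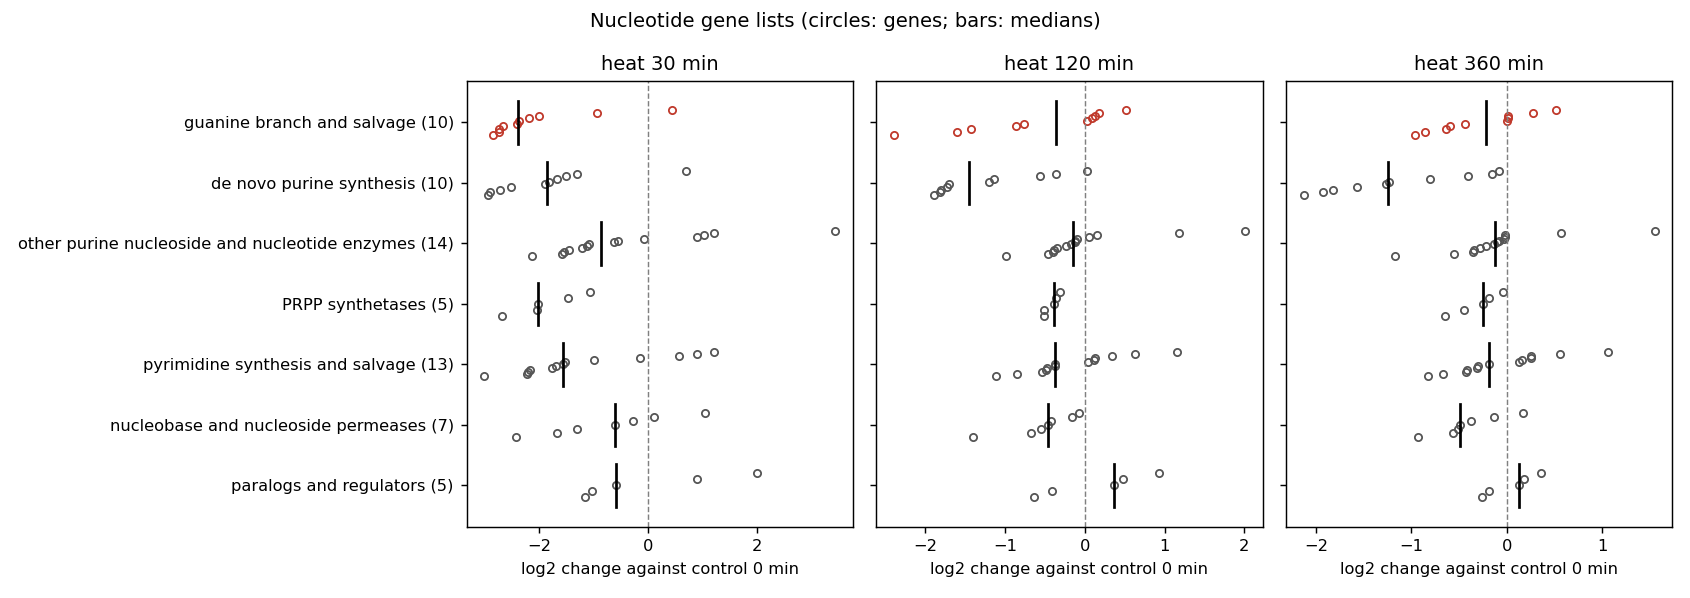
Log2 change against control at 0 min of each measured gene (circles) of 7 gene lists at 30, 120 and 360 min of heat, with a bar at each list's median and the number of genes in brackets; the 10 genes described here are in red. At 30 min their median is -2.39 and that of de novo purine synthesis -1.86, and at 360 min -0.22 and -1.25.

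The paralogs and regulators measured were 5, and IMD1 was not analysed here. SAF1 encodes the F-box protein known to direct the degradation of Aah1, and its intensity was 1836 ± 130 at 30 min of heat and 1022 ± 40 at 120 min, against 404 ± 19 in controls at 0 min (SD, n = 3 each). SAF1 rose by 1.99 ± 0.10 at 30 min (adjusted p = 9.82e-15) and by 0.88 ± 0.10 at 120 min and 0.72 ± 0.10 at 240 min against controls of the same time, and was not called at 360 min (0.13 ± 0.10). BAS1, an activator of ADE genes, fell by 1.17 at 30 min (-1.17 ± 0.09), while PHO2, which acts with it, rose by 0.89 ± 0.06. GCN4, the general activator of amino acid synthesis genes that also acts on purine genes, was at -1.03 ± 0.08 at 30 min and -0.27 ± 0.08 at 360 min. APT2, a paralog of APT1, fell at 30 min (-0.60 ± 0.14) and was called higher at 120 and 240 min against controls of the same time (0.45 ± 0.14 and 0.62 ± 0.14), where APT1 was at -0.71 ± 0.13 and -0.24 ± 0.13.

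Over the 9 groups the order of mean deposited intensities within a gene differed among the 10 genes. This order was not worked out for all genes, so it is a description only. For AAH1, HPT1, GUA1, APT1 and FCY2 the 3 control groups held the 3 highest means and heat 30 min the lowest. In AAH1, GUA1, APT1, HPT1 and FCY2 the lowest control group did not overlap the next, which was heat 360 min for AAH1, HPT1 and FCY2 and heat 240 min for GUA1 and APT1. Such gaps were common: at 240 and 360 min all heat arrays lay below control at 0 min in 27.3% and 27.2% of all genes. They lay above it in 42.4% and 47.1%. Of the 10 genes, 5 and 6 lay below and 1 and 2 above. For IMD2 and IMD3 controls at 240 min were highest, and the next 4 means of IMD2 and 5 of IMD3 followed with overlapping arrays between neighbours. In IMD4 heat 240 and 360 min were highest and overlapped each other, and heat 360 min did not overlap controls at 120 min, the next group. In XPT1 heat 120 min alone was highest, without overlap, and the 6 means below it, from controls at 240 min down to heat 240 min, overlapped from neighbour to neighbour. In AMD1 the 5 heat groups from 30 to 360 min were highest, each overlapping the next, and the lowest of them, heat 30 min, did not overlap controls at 240 min.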

How the data were processed

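RNA of 27 culture samples, 3 per group, was measured on one-colour Affymetrix arrays. The authors deposited linear intensities, 1 value per probe set. MAS5 is named in the submitters' processing notes; its version and target intensity were not found in the labels or file headers. No value lies below 20. Of 9335 probe sets, 60 array controls apart, 6504 name 1 gene, 328 several and 2443 none. Genes were named through gene IDs, all 5656 of them matched in RefSeq R64, and the brightest probe set was used for the 315 genes with several.

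Array medians differed by a ratio of 1.28, so arrays were quantile normalised over the tested genes. Then log2(value + 113.809) was fitted with limma 3.58.1 in R 4.3.3, 1 mean per group, eBayes with a trend, for 17 comparisons, adjusted within each. Replicates are named biological in the labels. Control arrays are shared among the heat comparisons. The fit was tested on simulated data. Named besides the 10 genes were up to 4 members per list with the largest called change at 30 min, all regulators, and the 3 genes most like each gene. The genes and lists were chosen with earlier results of these data known, and no list was tested. The labels do not say that a replicate number marks the same culture across times, and the main fit did not take the numbers as pairs. Same-numbered replicates deviated together (r above 0.1, up to 0.76 in heat) in 23 of 45 heat pairs and 4 of 9 control pairs. Replicates of different number were not compared, so these counts cannot decide whether the numbers mark cultures. Alternatives changed the scaling, offset, dim-gene filter, probe set rule, variance trend, arrays in the fit, blocks, background term, control and each array in turn. No sequences are shown.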

Additional observations from a re-analysis of the deposited data

Results flagged for a closer look

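For 4 of the 10 genes the effect of heat differed between 240 and 120 min, each time against controls of the same time, by a test of that difference between 4 groups in the limma fit of all 27 arrays. The heat effect at 240 min minus that at 120 min was 1.63 ± 0.12 for AAH1 (adjusted p = 1.8e-08), 0.81 ± 0.21 for FCY2 (adjusted p = 0.0138) and 0.54 ± 0.11 for GUA1 (adjusted p = 0.00298), all of which came closer to control, and -0.31 ± 0.09 for XPT1 (adjusted p = 0.0208), which stood above control at 120 min. Of all genes 5.45% were called in the direction of AAH1, FCY2 and GUA1 and 5.18% in that of XPT1. The value of GUA1 was 0.35 and not called in the values as deposited. XPT1 lost its call without replicate 2 (-0.28) or 3 (-0.30) of heat 120 min, replicate 1 of heat 240 min (-0.29) or replicate 1 of control 240 min (-0.29). APT1, at 0.47 ± 0.18, was not called (adjusted p = 0.0931), but was without replicate 1 of heat 120 min (0.59, adjusted p = 0.0308).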

How the results depend on the processing

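Over 42 settings, 2886 of 3011 recomputed values of the 10 genes kept their side of the threshold with no change of sign of a called value, 74 lost a call, 31 gained one and 20 changed sign with a call under at least one of the settings. Of the 2886, 79 changed sign with no call under either setting. With arrays scaled to a common median, IMD2 turned to -0.21 (240 min) and -0.36 (360 min) against 0 min and to -0.19 (120 min) and -0.21 (240 min) against controls of the same time, IMD3 to -0.20 and -0.29, IMD4 to -0.022 and -0.088 and XPT1 at 360 min to -0.22. Other turned values were AMD1 from 30 to 60 min (0.030, values as deposited), AAH1 from 30 to 60 min (-0.45, dim genes left out) and AMD1 at 60 min (-0.070, background term). With its dimmest probe set IMD2 was -0.69 (240 min) and -1.03 (360 min) against 0 min and -0.34 (120 min) and -1.0 (240 min) against controls of the same time, and with its dimmer one IMD4 was -0.50, -0.037 and -0.028 at 120, 240 and 360 min against 0 min and -0.55 against controls at 120 min; these 2 settings were added after seeing the data. The cause was not tested.

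With the background term, 2509, 2120 and 2304 genes were called at 120 and 360 min against 0 min and at 120 min against controls of that time, where 3895, 3787 and 3896 were called without it, and 4, 2, 2, 4 and 2 of the 10 genes at 120, 240 and 360 min against 0 min and at 120 and 240 min against controls of the same time, where 7, 7, 7, 7 and 6 were. In a fit of only the groups compared, with fewer arrays, 1238 and 549 genes were called for 120 against 60 min and 240 against 120 min of heat, where 1922 and 1188 were. For controls at 240 against 0 min 7 genes were called in the values as deposited, with a doubled offset and with the culture as a random block, and 14 with the background term, where 4 were. Leaving out each array in turn gave 386 to 739 genes for the heat effect at 240 less that at 120 min (386 without replicate 3 of heat 120 min, 399 without replicate 1 of heat 240 min; 601 with all arrays), 0 to 4 for controls at 120 min (4 without its replicate 2), 1 to 3 for controls at 240 min, 791 to 1135 for 240 against 120 min of heat (791 without replicate 1 of heat 240 min) and 228 to 328 genes and 0 to 1 of the 10 for 360 against 240 min (458 and 0 with all arrays). The replicate block changed no call to a loss: it newly called APT1 for the heat effect at 240 less that at 120 min (0.47), AAH1 from 30 to 60 min (0.16) and from 60 to 120 min (0.18) and IMD4 from 120 to 240 min (0.27), and moved no count of calls by over 1.5 times.

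As deposited, the median of all genes lay at 0.14 (120 min), 0.13 (360 min), 0.11 (120 min against its own control) and 0.13 (360 against 30 min). Of the called genes, 58.4%, 65.1%, 62.3% and 64.9% were then higher at 60, 120, 240 and 360 min, where 46.0%, 47.4%, 46.0% and 47.5% were after quantile normalisation, 62.1% (48.4%) at 120 min against its own control, 28.8% (51.2%) for that effect at 240 less 120 min, and 61.6% (45.0%), 67.1% (53.9%), 32.6% (47.8%), 64.2% (48.3%) and 61.3% (45.8%) for 60 against 30, 120 against 60, 240 against 120, 360 against 240 and 360 against 30 min. Signal over background limits the folds of AAH1 at 10 to 120 min and of HPT1 at 30 min, the dimmest values of the 10 genes.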
